A study of Mus musculus with 6 samples.

Results

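The proteasome subunit genes were described in newborn mouse lenses that carried 2 working copies or 1 working copy of Pax6, the paired-domain and homeodomain transcription factor on which lens formation depends. The members were all genes whose symbol began with Psma, Psmb, Psmc or Psmd, taken from the platform annotation of the array, which gave 39 of the 12393 genes with a probe set of their own. Of these, 18 encode the core particle (8 Psma and 10 Psmb genes) and 20 encode the regulatory particle or factors that assemble it (6 Psmc and 14 Psmd genes). Psmc3ip meets the spelling only: its product is a recombination factor and no subunit, and it was kept apart. Psmb11, the thymic subunit, was not analysed here.

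Total RNA came from lenses of mice at postnatal day 1, with the 2 lenses of a mouse making up a sample. There were 3 wild-type mice, which the methods place on the NMRI background, and 3 Pax6 heterozygous mice (Pax6lacZ/+, written Pax6+/- here). The strain background, sex and litter of the heterozygous mice were not given in the sources used here. From 50 ng of RNA, cDNA was amplified, biotin labelled and hybridised to Affymetrix mouse arrays, and the deposited values are signals on a linear scale. In whole lenses, fewer cells of a type and less RNA per cell cannot be told apart. The p-values for genotype are set against the spread between these mice, less the differences between replicate numbers where that number was a block. The F tests of the replicate number test those differences themselves.

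The proteasome is the cell's main protease for proteins tagged with ubiquitin. Psma and Psmb products (alpha and beta subunits) stack into a barrel with the cutting sites on its inside, and the cap, built of the Psmc ATPases and the Psmd non-ATPases, binds, unfolds and threads the substrate into it. The beta subunits encoded by Psmb5, Psmb6 and Psmb7 do the cutting, after hydrophobic, acidic and basic residues in that order. In cells exposed to interferon gamma they are replaced by Psmb8, Psmb9 and Psmb10, respectively, which gives the immunoproteasome that prepares peptides for antigen presentation. When proteasome activity is short, the transcription factor encoded by Nfe2l1 raises the subunit genes together. In the lens, fibre cells degrade their organelles as they mature, and the ubiquitin and proteasome pathway has long been studied there.

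The 250 bases before the start of a pair of constitutive catalytic genes and of their immune counterparts are shown because Psmb5 and Psmb6 gave signals far above array background while Psmb8 and Psmb9 lay near it. Sequences are from RefSeq on GRCm38.p6, 5′ to 3′ on the strand of the gene, at chr14:54617996-54618245 (minus strand) for Psmb5, chr17:34197945-34198194 (plus strand) for Psmb8, chr11:70525107-70525356 (plus strand) for Psmb6 and chr17:34187331-34187580 (minus strand) for Psmb9. Capitals mark the antioxidant response element core TGACNNNGC, a motif bound by Nfe2l1 and Nfe2l2, in Psmb5 and Psmb6, and the interferon gamma activated site TTCNNNGAA in Psmb8.
Psmb5: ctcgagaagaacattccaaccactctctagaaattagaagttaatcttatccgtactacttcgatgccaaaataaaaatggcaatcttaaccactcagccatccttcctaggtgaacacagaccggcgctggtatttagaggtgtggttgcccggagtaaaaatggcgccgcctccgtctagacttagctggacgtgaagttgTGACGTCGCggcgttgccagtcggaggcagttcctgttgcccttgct
Psmb8: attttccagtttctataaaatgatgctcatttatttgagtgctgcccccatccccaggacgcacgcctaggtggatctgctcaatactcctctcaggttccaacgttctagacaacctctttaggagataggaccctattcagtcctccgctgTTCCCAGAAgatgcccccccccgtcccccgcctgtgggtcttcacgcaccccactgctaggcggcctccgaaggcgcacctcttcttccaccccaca
Psmb6: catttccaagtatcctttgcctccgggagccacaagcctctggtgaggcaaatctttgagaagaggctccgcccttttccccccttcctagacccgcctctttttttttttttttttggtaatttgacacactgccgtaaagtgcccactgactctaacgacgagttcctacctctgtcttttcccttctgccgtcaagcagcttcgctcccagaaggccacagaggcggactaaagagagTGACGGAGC
Psmb9: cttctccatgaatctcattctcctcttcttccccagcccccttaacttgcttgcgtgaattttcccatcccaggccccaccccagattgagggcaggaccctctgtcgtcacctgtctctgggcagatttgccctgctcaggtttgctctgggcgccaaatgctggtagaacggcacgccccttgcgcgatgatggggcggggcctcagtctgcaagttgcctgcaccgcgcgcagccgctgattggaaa

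The antioxidant response element core lay at bases -47 to -39 before the start of Psmb5 and at -9 to -1 before that of Psmb6. The interferon gamma activated site of Psmb8 lay at -97 to -89, and Psmb9 held neither motif in this window. Windows were at hand for 31 of the 38 subunit genes. On either strand, the antioxidant response element core was found in 5 of these 31 (16.1%: Psmb5, Psmb6, Psmc6, Psmd9 and Psmd12) and in 11.5% of the 27025 genes with a window. The interferon gamma activated site was found in Psmb8 alone of the 31, and in 8.13% of all genes. The core of the interferon-stimulated response element was found in Psmb3, Psmd4 and Psmd9, and in 3.46% of all genes. CCAAT was found in 12 of the 31 (38.7%) and in 37.5% of all genes. These matches describe letters in a window and not binding, and the motifs were searched as overlapping matches on their own.

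Proteasome genes gave bright signals in both genotypes. The median signal over the 6 arrays was above 100 for 33 of the 39 members (84.6%), against 36.2% of all genes, for 1 member (Psmb10) it lay between 50 and 100 (8.53% of all genes), and for 5 it lay under 50. Of the 5, Psmb8, Psmb9 and Psma8 were close to the signals of 33 probe sets for olfactory receptors, genes with no known role in the lens, whose medians were 9.65 to 11.0 by array and at most 13.4 by probe set. Levels were not compared between genes as amounts of RNA, since each probe set binds with its own strength.

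Among the catalytic subunits, Psmb5 was the brightest core member, at 4457, 4641 and 4411 in wild-type lenses and 4224, 4477 and 4536 in Pax6+/- lenses. Its 6 values lay within a narrow span and the genotypes overlapped. Its immune counterpart Psmb8 read 14.2, 11.3 and 12.6 in wild-type and 14.3, 12.1 and 12.2 in Pax6+/- lenses, near the olfactory receptor signals in every array. Psmb6 read 2076, 4235 and 2275 in wild-type and 1965, 3926 and 2350 in Pax6+/- lenses, with replicate 2 standing well above the other replicates in either genotype. Its counterpart Psmb9 read 11.9, 11.8 and 10.4 in wild-type and 8.83, 10.4 and 9.93 in Pax6+/- lenses. Psmb7 read 2019, 2071 and 2650 in wild-type and 2027, 2106 and 2702 in Pax6+/- lenses, with replicate 3 highest in both. Its counterpart Psmb10 was the only immune subunit above the olfactory receptor signals, at 82.9, 109 and 64.9 in wild-type and 65.8, 110 and 57.0 in Pax6+/- lenses, again highest in replicate 2. Psma8, which replaces Psma7 in the testis, was at 20.3, 15.3 and 11.8 in wild-type and 11.8, 12.4 and 16.2 in Pax6+/- lenses.

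**Figure D1:**
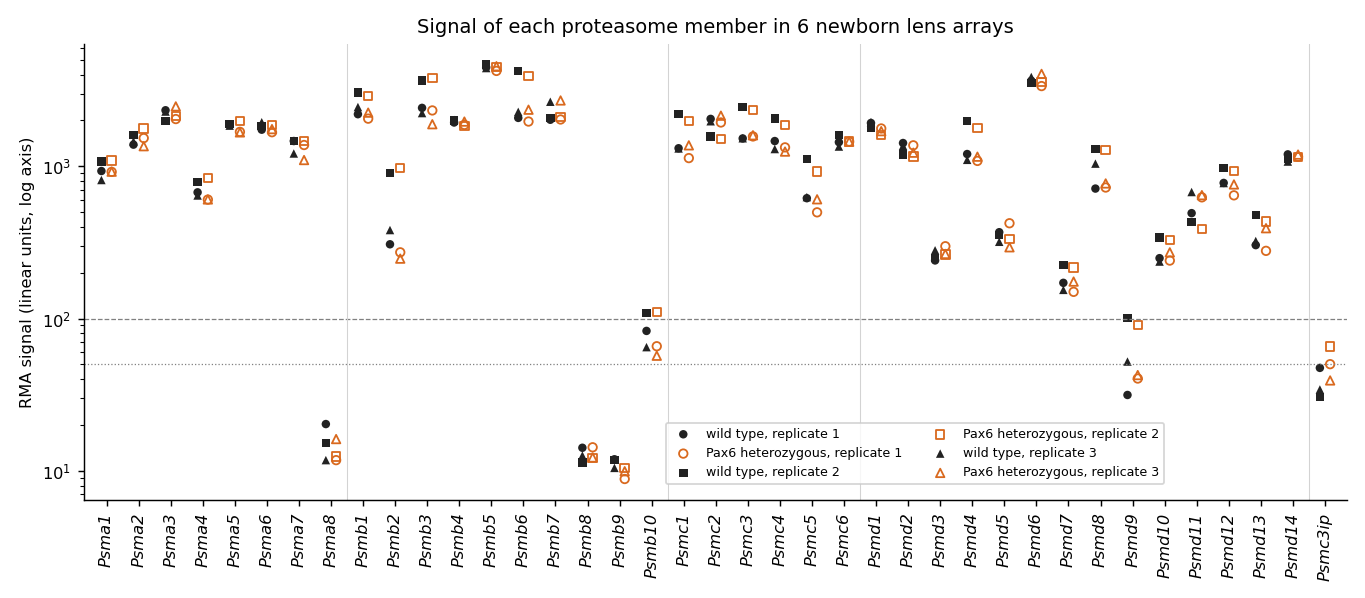
Signal of each of the 39 members (y axis, linear array signal drawn on a log axis) in 3 wild-type (filled) and 3 Pax6+/- (open) lens samples, with 1 mark per sample, the mark's shape giving the replicate number and horizontal lines at 50 and 100. The genotypes overlap in every column but Psmd1, squares (replicate 2) stand high in many columns, and Psma8, Psmb8 and Psmb9 lie lowest.

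No proteasome gene had a called difference between the genotypes. With limma across 22626 probe sets, 0 of the 39 members had an adjusted p under 0.05, as did 0% of all genes. At an unadjusted p under 0.05 the count was also 0 of 39, against 2.24% of all genes (1.12% higher and 1.12% lower in Pax6+/- lenses), and it was 0 of 39 with the replicate number as a block, against 9.83%. The smallest unadjusted p among the members was 0.108, and their smallest adjusted p was 1.00 (limma). With the block these were 0.0715 and 0.601 (limma). For 1 member of 39 (2.56%, Psmd1) every Pax6+/- value lay on the same side of every wild-type value, against 6.07% of all genes, and 3.49% in the direction of Psmd1, lower in Pax6+/- lenses.

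The measured differences of the members were small. For the 33 brighter members, the log2 difference (Pax6+/- minus wild-type) ran from -0.23 to 0.10, while the middle of all genes with a median signal above 100 spanned -0.30 to 0.32 (5th to 95th percentile). The 95% interval of the difference lay within 1.5-fold in either direction for 22 of these 33, against 44.9% of all genes above 100, and for 24 of all 39, against 54.5%. With the replicate block it did so for 32 of 33, against 86.1%, and the exception was Psmb2, with an interval of -0.61 to 0.15. Of all 39 members, 27 (69.2%) had a log2 difference below 0, against 53% of all genes, and 23 of the 33 above 100, against 56%. That split depends on the scaling, being 82.1% of members (59.7% of all genes) after centring each array on its median and 59% of members (50.8% of all genes) after quantile normalization.

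**Figure D2:**
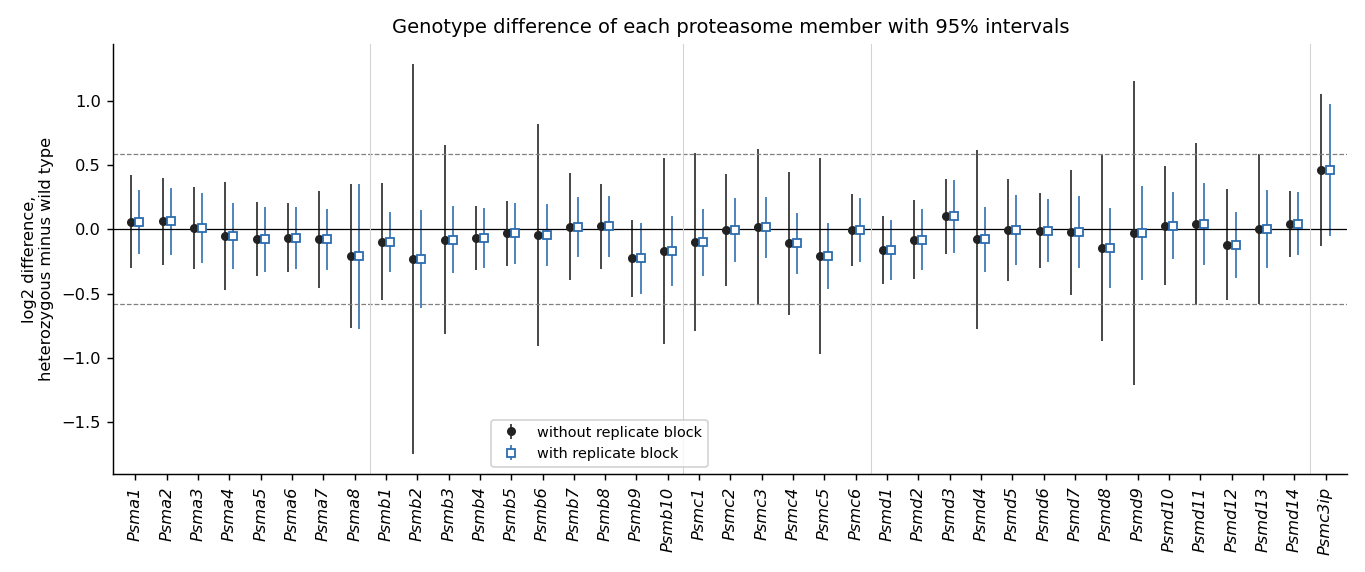
Log2 difference of each of the 39 members (y axis, Pax6+/- minus wild-type) with its 95% interval from limma, without (filled circles) and with (open squares) the replicate block, and dashed lines at 1.5-fold in either direction. Every interval crosses 0, and the block narrows the interval most for members that varied between replicates, such as Psmb2 and Psmd9.

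In the core particle, the median log2 difference over the 18 genes was -0.07, with 13 of 18 lower and a range of -0.23 to 0.06, beside a median of -0.01 over all genes. Psmb5 differed by -0.03 ± 0.11 (SE, 95% interval -0.28 to 0.22), from 4503 ± 122 in wild-type to 4412 ± 166 in Pax6+/- lenses (mean ± SD, n = 3 each). Psmb7 differed by 0.02 ± 0.17, from 2247 ± 351 to 2279 ± 369. Psmb6 differed by -0.05 ± 0.36 (95% interval -0.91 to 0.82), and the interval narrowed to -0.29 to 0.19 with the replicate block. Each Pax6+/- value of Psmb6 lay close to the wild-type value of its own replicate number.

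The alpha subunits form the outer rings of the barrel and gate its entrance. Psma2 had the smallest p of the class among those with a higher mean, at 1386, 1600 and 1456 in wild-type and 1530, 1773 and 1353 in Pax6+/- lenses, a log2 difference of 0.06 ± 0.14 (adjusted p = 1.00, limma). Psma3, the brightest alpha subunit, differed by 0.01 ± 0.13, from 2198 ± 191 to 2213 ± 227. Psma8, the dimmest, differed by -0.21 ± 0.23. All 8 alpha subunits overlapped between the genotypes, and their median difference was -0.06 with 5 of 8 lower.

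The immune subunit Psmb9 had the smallest p of the core particle. It differed by -0.22 ± 0.12 (95% interval -0.52 to 0.07, adjusted p = 1.00, limma), from 11.4 ± 0.802 to 9.74 ± 0.826. With the replicate block its adjusted p was 0.631. The lowest wild-type sample and the highest Pax6+/- sample had the same signal, 10.4, so the genotypes met, and all 6 values were at the level of the olfactory receptor probe sets. The study's own list of changed genes, which was chosen on these samples, holds Psmb9. Psmb8 differed by 0.02 ± 0.14, and Psmb10 by -0.17 ± 0.30.

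In the regulatory particle the median log2 difference over the 20 genes was -0.02, with 14 of 20 lower and a range of -0.21 to 0.10. Psmd1, the large scaffold subunit of the base, read 1923, 1800 and 1947 in wild-type and 1769, 1606 and 1700 in Pax6+/- lenses. All 3 Pax6+/- values lay below all 3 wild-type values, by a narrow gap between 1800 and 1769. The Pax6+/- mean was 89.5% of the wild-type mean (1691 ± 82.0 against 1890 ± 78.8), a log2 difference of -0.16 ± 0.11 (95% interval -0.42 to 0.10, adjusted p = 1.00, limma). In the other direction, Psmd3, a subunit of the lid of the cap, read 241, 250 and 280 in wild-type and 298, 263 and 266 in Pax6+/- lenses, a difference of 0.10 ± 0.12 (adjusted p = 1.00, limma). Those values overlapped. Psmd6, the brightest regulatory member, read 3639, 3526 and 3855 against 3359, 3575 and 4038, a difference of -0.01 ± 0.12.

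The Psmc genes encode the ring of ATPases that pulls substrates into the barrel. Psmc5 read 616, 1114 and 627 in wild-type and 498, 926 and 606 in Pax6+/- lenses. It was lower in each Pax6+/- sample than in the wild-type sample of the same number, yet replicate 2 stood apart from the others by far more than the genotypes did. Its difference was -0.21 ± 0.32 (95% interval -0.97 to 0.56, adjusted p = 1.00, limma), and the interval with the replicate block was -0.47 to 0.05. Psmc3 read 1522, 2440 and 1526 against 1568, 2343 and 1597, a difference of 0.02 ± 0.25. Psmc2, the brightest of the class, read 2045, 1572 and 1973 against 1937, 1506 and 2147, a difference of -0.01 ± 0.18, and here replicate 2 was the lowest. The median difference over the 6 Psmc genes was -0.05 with 5 of 6 lower, and over the 14 Psmd genes it was -0.02 with 9 of 14 lower.

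Psmc3ip, the recombination factor that shares the spelling, had the largest difference and the smallest p of all 39. It read 47.4, 30.6 and 34.2 in wild-type and 50.1, 65.6 and 39.2 in Pax6+/- lenses, a difference of 0.46 ± 0.25 (95% interval -0.13 to 1.05, adjusted p = 1.00, limma). The genotypes overlapped, and all but 2 of the values were under 50.

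For many proteasome genes the larger variation lay between samples of a genotype. Among members above 100, an effect of the replicate number was no more frequent than among all genes above 100. Its direction differed, with replicate 2 high more often. The replicate pattern was examined after the values had been seen. Replicate 2 was the highest of its genotype in both genotypes for 19 of the 33 members above 100 (57.6%), against 25.1% of all genes above 100. It was the lowest in both for 4 of 33 (Psmc2, Psmd1, Psmd2 and Psmd11), against 33.9%. The pattern was held by 8 of 14 core and 11 of 19 regulatory members above 100, and by class it was held by 5 of 6 Psmc, 4 of 7 Psma, 4 of 7 Psmb and 6 of 13 Psmd genes. A limma F test of the replicate number gave an adjusted p under 0.05 for 9 of the 33 (27.3%), against 33.6% of all genes above 100. Over all 39 members replicate 2 was the highest in both genotypes for 21, against 20.8% of all genes. The F test called 11 of the 39, against 21.1% of all genes, and replicate 2 was the highest in both genotypes in each of the 11.

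**Figure D3:**
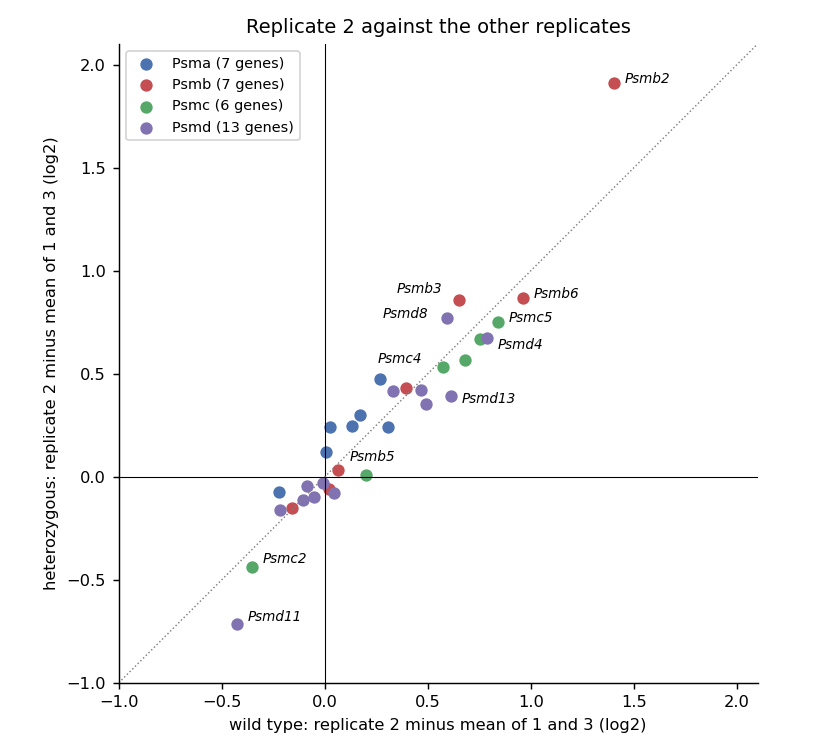
Log2 signal of replicate 2 minus the mean of replicates 1 and 3 in wild-type (x axis) and Pax6+/- lenses (y axis), with 1 point per member for the 33 members above 100, coloured by class, and a dotted line of equality. Points lie near the line, most of them above 0 on both axes, with Psmb2 farthest out and Psmc2 and Psmd11 at the other end.

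Psmb2, a beta subunit of the inner ring without a cutting site, showed this most. It read 307, 905 and 381 in wild-type and 272, 976 and 247 in Pax6+/- lenses, so that replicate 2 was 2.65-fold and 3.77-fold the geometric mean of the other replicates (limma F test of the replicate number, adjusted p = 0.00892). Its genotype difference was -0.23 ± 0.63 (95% interval -1.75 to 1.29), the widest of the subunits. Psmb6 was 1.95-fold and 1.83-fold higher in replicate 2 (adjusted p = 0.0106, limma), and Psmc5 1.79-fold and 1.69-fold (adjusted p = 0.0164, limma). Psmd9, an assembly chaperone of the ATPase ring and the dimmest regulatory member, was 2.48-fold and 2.18-fold higher (adjusted p = 0.0128, limma), at 31.5, 101 and 52.2 in wild-type and 40.4, 90.4 and 42.5 in Pax6+/- lenses. By contrast Psmb5 was 1.05-fold and 1.02-fold, and Psmb7 was 0.895-fold and 0.900-fold. These folds each rest on a single probe set, the brightest of the gene. A dimmer probe set of Psmd9 went the other way, at 20.3, 17.2 and 29.8 in wild-type and 17.4, 16.5 and 27.4 in Pax6+/- lenses. It put replicate 2 lowest in both genotypes, at 0.699-fold and 0.755-fold (limma F test of the replicate number, adjusted p = 0.0196). Psmb2 was chosen after its values were seen.

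Centred on its genotype mean, the median regulatory member was at -0.10, 0.27 and -0.11 (log2) in wild-type replicates 1, 2 and 3 and at -0.17, 0.25 and -0.03 in the Pax6+/- replicates. The median core member was at -0.02, 0.07 and -0.09 and at -0.12, 0.16 and -0.08. The median gene above 100 was at -0.06 in wild-type replicate 2 and at -0.04 in Pax6+/- replicate 2, although quantile normalization in RMA sets the arrays to a like overall level beforehand. Markers of lens cells moved in the same direction, at -0.15, 0.12 and -0.01 in wild-type and -0.21, 0.16 and 0.01 in Pax6+/- lenses. Macrophage markers were at 0.96, -0.19 and -0.49 and at 0.87, 0.35 and -1.36, and endothelial markers at 0.48, -0.14 and -0.24 and at 0.71, -0.24 and -0.50. The labels give no batch, and the part of these cell types in the replicate pattern was not tested.

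Where a gene had several probe sets, they did not always give the same account. The 39 members had 68 probe sets, of which 47 had a median above 100, and 0 of the 68 had an unadjusted p under 0.05 for genotype with or without the replicate block, against 1.99% of all probe sets without it. Among the 13 genes with at least 2 probe sets above 100, the genotype differences of a gene's probe sets spanned a median of 0.06 and at most 0.22 (Psmd6, -0.01 and 0.21). The replicate pattern was less uniform. In 4 of the 13 (Psma5, Psmb1, Psmc6 and Psmd11) replicate 2 lay above the geometric mean of replicates 1 and 3 in both genotypes by 1 probe set and below it in both by another.

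The following genes were chosen after their values were seen. Psmb1, a beta subunit without a cutting site, read 2196, 3045 and 2446 in wild-type and 2052, 2900 and 2248 in Pax6+/- lenses by its brightest probe set, highest in replicate 2. By its other probe set it read 300, 288 and 403 against 271, 259 and 388, which puts replicate 2 lowest. Psmd11, a subunit of the lid of the cap, read 492, 429 and 677 against 625, 387 and 646 by its brightest probe set and 150, 246 and 112 against 138, 206 and 155 by another, again in opposite directions. Psmc4, an ATPase, was 1.49-fold and 1.45-fold higher in replicate 2 by its brightest probe set (limma, adjusted p = 0.0319) and 1.01-fold and 1.03-fold by the other (adjusted p = 0.686). Psmb3 kept the pattern in both of its probe sets, 1.57-fold and 1.81-fold by the brighter and 2.90-fold and 2.76-fold by the other. The genotypes overlapped in each of these probe sets.

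**Figure D4:**
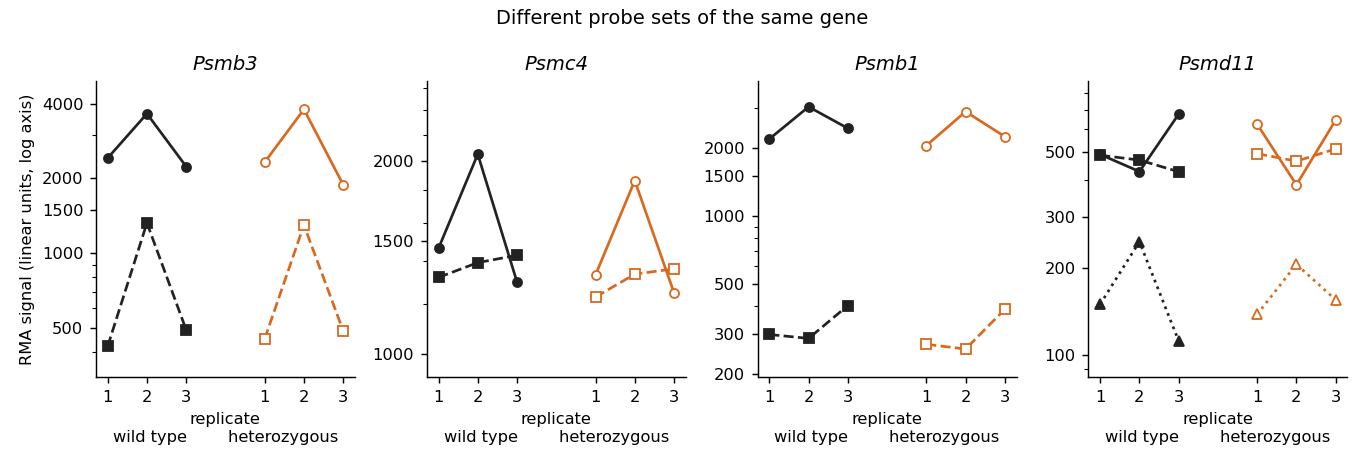
Signal (y axis, linear array signal on a log axis) by sample (x axis, replicates 1 to 3 of wild-type and then Pax6+/- lenses) of the probe sets with a median above 100 for Psmb3, Psmc4, Psmb1 and Psmd11, with 1 line per probe set and genotype, drawn only to guide the eye. The shape over the replicates differs between probe sets of Psmc4, Psmb1 and Psmd11 and is alike between the genotypes for most probe sets.

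Other genes of the pathway gave no called difference either. Of 36 listed, 26 had a probe set of their own, with 9 higher, 17 lower and a median log2 difference of -0.04. In either fit 0 of the 26 had an unadjusted p under 0.05, against 2.24% of all genes (9.83% with the replicate block). Of the activators and the inhibitor that bind the barrel in place of the cap, 4 of 5 were measured. All 4 log2 differences were below 0, against 53% of all genes. For Psme1 the difference was only -0.0015, and its Pax6+/- mean was 103% of the wild-type mean. Psme4, the activator of nuclei and testis, read 1486, 1579 and 1895 in wild-type and 1230, 1295 and 2036 in Pax6+/- lenses, a difference of -0.15 ± 0.22 with overlap. All 5 assembly factors had lower means, with a median of -0.16, and Psmg4, a chaperone of the alpha ring, had the smallest p (93.1, 112 and 91.8 against 67.2, 105 and 85.7, a difference of -0.22). Nfe2l1 itself read 466, 410 and 443 against 446, 376 and 406, a difference of -0.11 ± 0.12, again with overlap. Of the shuttle proteins that carry tagged substrates, Ubqln2 read 956, 772 and 1109 against 1082, 970 and 1170, a difference of 0.19 ± 0.17.

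Some of these partners varied with the replicate number as the subunits did, and others in the opposite direction. The limma F test of the replicate number gave an adjusted p under 0.05 for 10 of the 26 (38.5%). That compares with 21.1% of all genes and 33.6% of genes above 100. Replicate 2 was the highest in both genotypes for 10 of the 26 (38.5%), against 20.8% and 25.1%. Psme1, a subunit of the activator that interferon gamma induces, read 547, 1125 and 416 in wild-type and 500, 1244 and 411 in Pax6+/- lenses, 2.36-fold and 2.74-fold higher in replicate 2 (limma F test, adjusted p = 0.00706). Usp14, a deubiquitinase bound to the cap, read 167, 83.7 and 196 against 196, 80.4 and 204, so that replicate 2 was 0.462-fold and 0.402-fold of the others (adjusted p = 0.00827, limma). Both were chosen after their values were seen.

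The genes that accompany the immune subunits in interferon responses were mostly dim. Of 16 antigen processing and interferon genes, 13 were measured, 10 of them with a median under 50, with 7 higher and 6 lower. At an unadjusted p under 0.05 the count was 0 of 13, against 2.24% of all genes. With the replicate block it was 2 of 13 (Irf1 and H2-D1), against 9.83% of all genes, and 0 had an adjusted p under 0.05. Irf1, an interferon-induced transcription factor that acts on the Psmb9 promoter, read 21.8, 34.3 and 23.5 in wild-type and 14.3, 20.3 and 20.6 in Pax6+/- lenses. Its genotypes did not overlap, as in 6.07% of all genes, and its difference was -0.52 ± 0.23 (adjusted p = 1.00, and 0.411 with the replicate block, limma). Tapbp, which loads peptides onto class I molecules, was bright, at 1045, 895 and 1071 against 943, 878 and 835, a difference of -0.18 ± 0.13.

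Series-wide, Pax6 read 1169, 1760 and 963 in wild-type and 942, 1170 and 882 in Pax6+/- lenses by its brightest probe set, with overlap and the Pax6+/- mean at 76.9% of the wild-type mean. Its difference of -0.34 ± 0.24 was lower in each of the 3 pairs of the same replicate number (-0.31, -0.59 and -0.13), with an adjusted p of 1.00 and, with the replicate block, 0.509 (limma). Other Pax6 probe sets differed. With a median of 119, the next brightest had its Pax6+/- mean at 62.4% of wild-type and was lower in each pair (block-adjusted p = 0.246, limma). Another, with a median of 60.3, was at 114% and higher in each pair. The dimmest, with medians of 25.3 and 10.6, were at 73.9% and 92.4%. The study also reported lower Pax6 by quantitative RT-PCR. Whether the probes lie in the replaced part of the allele was not given. Of 14 lens markers 11 were measured and 10 had medians above 100, with summed signals of 97930 to 118764 in wild-type and 94591 to 116181 in Pax6+/- lenses and 0 with an unadjusted p under 0.05, while Foxe3, a factor of the lens epithelium, was at the level of the olfactory receptors. Retina markers summed to 745 to 853 in wild-type and 1066 to 1649 in Pax6+/- lenses, with 8 of 8 measured (of 10 listed) higher in the mean. Of these, 3 were without overlap (Rcvrn, Stmn3 and Neurod1), and 3 (4 in the blocked fit) had an unadjusted p under 0.05. Rcvrn was at the level of the olfactory receptors (median 10.0), and Nrl and Crx were dim too (13.2 and 16.4). Endothelial markers summed to 684 to 1141 and 891 to 1812, with 9 of 10 higher by log2 difference and 1 with an unadjusted p under 0.05 (4 with the block). Macrophage markers summed to 554 to 1827 and 370 to 2182, with 12 of 12 higher and 0 with an unadjusted p under 0.05 (2 with the block), and red blood cell markers to 24.6 to 33.0 and 23.3 to 34.7 (2 of 4 measured, 0 under 0.05). Beside these counts, 6.07% of all genes were without overlap, and 2.24% had an unadjusted p under 0.05 (9.83% with the block). No marker had an adjusted p under 0.05 in either fit. The part of these cells in the proteasome values was not tested.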

How the data were processed

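Signals of 6 arrays were analysed, 3 samples per genotype as labelled. The deposited table holds array intensity on a linear scale for 22626 probe sets beside 64 controls, which the authors made with robust multi-array averaging (RMA: background correction, quantile normalization and probe summary; version not given in the sources used here). RMA shrinks differences of dim probe sets. The table holds fewer probe sets than the array named in the methods is known to carry, and genes outside it were not analysed here. Signals were taken as log2 and tested with limma 3.58.1 in R 4.3.3 across all probe sets, with Benjamini-Hochberg adjustment. Of the probe sets, 20380 had 1 gene, 691 had several and 1555 had none in the platform annotation; each gene was given by its probe set with the highest mean, and all 39 members matched RefSeq by Entrez number. The fit was run on simulated data, where the check required only that fitted differences follow the planted ones. Rates of recovery and of false calls are not reported here. Precision is limited by the 3 arrays per genotype.

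Members and gene lists were chosen with earlier results of these data known. Genes were named by rule: the catalytic subunits and their immune counterparts, in each class the smallest p in each direction and the brightest and dimmest member, any member with an unadjusted p under 0.05, Psmc3ip, and the 2 smallest p of each other list; others are stated as chosen after their values were seen. Of the other lists, the genes so named whose differences the report does not print gave log2 differences of -0.06 (Psme3), -0.13 (Psmg1), 0.18 (Txnl1), 0.13 (Sem1), -0.23 (Nfe2l2) and -0.10 (Ubqln1), and of the marker lists 0.40 (Ly86), 0.68 (Cd68), 0.55 (Pecam1), 0.52 (Tek), 0.69 (Neurod1), 0.78 (Stmn3), -0.12 (Hba-a1), -0.06 (Alas2), -0.16 (Foxe3) and -0.08 (Crybb1). Of the 36 pathway genes, 4 of 5 activators and inhibitors, 5 of 5 assembly factors, 6 of 7 cap partners, 6 of 7 Nfe2l1 genes, 5 of 6 shuttles and 0 of 6 ubiquitin and E1 genes were measured.

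Samples with the same replicate number deviated together (r of residuals 0.6045 to 0.7339, against -0.4962 to -0.07513 for different numbers). Residuals were centred within each genotype, so positive values for the same number force the others to be negative on average. On the same-number values, the numbers were taken as pairing the samples in the replicate block, and what they share is not stated. The main fit left this pairing out, so its errors hold the differences between replicate numbers (Psmb6 SE 0.36, against 0.098 with the block). The replicate number as a block, median centring, quantile normalization, filters on median signal, a pseudocount of 16, a trended prior, array weights, all probe sets of a gene, the methods' t-test and leaving out each replicate were tried as alternatives.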

Additional observations from a re-analysis of the deposited data

How the results depend on the processing

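The number of probe sets with an adjusted p under 0.05 was 0, and 2 with the replicate block. The block left unchanged the counts of members with an unadjusted p under 0.05 and of members without overlap. Among all genes it raised the share with an unadjusted p under 0.05 from 2.24% to 9.83%. None of the members named by rule had an adjusted p under 0.05 under any alternative run. The number of members with an unadjusted p under 0.05 was 0, and 1 with a pseudocount of 16 (Psmd1) or by the methods' t-test (Psmd1), and 0 to 1 with a replicate left out (Psmc3ip without wild-type replicate 1 or Pax6+/- replicate 3, 0.64). The number of members without overlap was 1, and 2 after median centring (Psmb9 and Psmd1, 5.13% against 6.29% of all genes), 2 after quantile normalization (Psmb4 and Psmd1, 5.13% against 6.16%) and 1 to 7 with a replicate left out (2.56% to 17.9%, against 12.4% to 16.1% of all genes). The core median ran from -0.16 to -0.0037 with a replicate left out. The regulatory median ran from -0.13 to 0.07, with its sign turned without wild-type replicate 2 (0.07) or Pax6+/- replicate 1 (0.03) and at 0.00055 after quantile normalization.

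Differences near 0 changed sign: after median centring Psma3 (-0.016), Psmb7 (-0.0060), Psmb8 (-0.0029) and Psmc3 (-0.0089), after quantile normalization Psmc2 (0.016) and Psmd6 (0.0041), with array weights Psma3 (-0.0045) and Psmd9 (0.025), and with all probe sets averaged Psmd6 (0.098). With a replicate left out, differences that changed sign ran from -0.039 to 0.16 for Psma2, -0.073 to 0.065 for Psma3, -0.050 to 0.0015 for Psmb5, -0.34 to 0.27 for Psmb6, -0.11 to 0.14 for Psmb7, -0.057 to 0.10 for Psmb8, -0.45 to 0.027 for Psmb10, -0.12 to 0.14 for Psmc2, -0.17 to 0.24 for Psmc3, -0.46 to 0.073 for Psmc5, -0.083 to 0.050 for Psmd6 and -0.43 to 0.41 for Psmd9. Those that kept their sign ran from -0.40 (without wild-type replicate 3) to -0.011 (without wild-type replicate 1) for Psma8, -0.28 to -0.16 for Psmb9, -0.20 to -0.12 for Psmd1, 0.04 to 0.16 for Psmd3, 0.27 to 0.64 for Psmc3ip and -0.53 to -0.10 for Pax6, the last without wild-type replicate 2. The causes were not tested.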
